A study of Mus musculus with 2 samples.

Results

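Basement membranes are thin sheets of matrix on which endothelial, epithelial and muscle cells rest, and mRNAs of 10 of their components were followed in 2 RNA-seq libraries of mouse liver stromal cells. The genes were Col4a1, Col4a2, Col4a5, Col18a1, Lama4, Lamb1, Lamc1, Nid1, Nid2 and Hspg2. They were chosen by name as basement membrane components, and each was found as 1 entry among the 38320 gene entries of both libraries. The choice used no value of these libraries, although it was made with earlier results of the data known, and Col4a5 is also among the genes that the study listed from them.

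Cells came from livers of adult male C57/Bl6 mice given carbon tetrachloride (CCl4, a liver toxin) for 5 weeks. Control mice carried 2 floxed Foxf1 alleles (Foxf1 fl/fl). Knockout mice carried the same alleles with an αSMA-CreER transgene (αSMACreER;Foxf1 fl/fl, called αSMACreER;Foxf1-/- here after tamoxifen), and so share the floxed alleles and the toxin with the controls. Tamoxifen was not particular to the knockout, since the study describes livers of both genotypes after CCl4 and tamoxifen. It does not give the tamoxifen treatment of the sequenced mice separately. The Cre recombinase is driven by the α-smooth muscle actin promoter, which limits deletion to cells in which that promoter is active. Liver cells that stuck to a culture dish within 2 h were collected, RNA was pooled, and 1 library per genotype was sequenced, termed the control (Foxf1fl/fl) and the knockout (αSMACreER;Foxf1-/-) library. With 1 library on each side, differences between the genotypes are given without p-values and stand unreplicated. FOXF1 is a forkhead transcription factor of stellate cells, and its own mRNA was not analysed here, so the knockout label was not checked by the targeted gene.

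Values are FPKM, in which fragments are scaled to transcript length and to all mapped fragments. The spacing of low values put an estimated 9597835 reads behind the Foxf1fl/fl library and 11142074 behind the αSMACreER;Foxf1-/- library. Approximate 95% intervals follow from these numbers and cover counting error only. Log2 differences take αSMACreER;Foxf1-/- minus Foxf1fl/fl on the log2(FPKM + 0.1) scale, after scaling by the median ratio of the libraries, and understate changes of genes near 0. The adherent cells held more than stromal RNA. All 10 macrophage and all 13 endothelial markers passed the filter, with summed FPKM of 10361 and 8753 (macrophage) and of 1170 and 1255 (endothelial) in Foxf1fl/fl and αSMACreER;Foxf1-/- cells, against 343 and 489 for 15 stellate cell and myofibroblast markers. The stellate cell genes Lrat, Reln, Ngfr and Hhip were below the filter. In bulk RNA, fewer cells of a type and less RNA per cell cannot be told apart.

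Collagen IV forms the network of a basement membrane from trimers of α chains, of which α1 and α2, encoded by Col4a1 and Col4a2, make the common form. Laminins are trimers of an α, a β and a γ chain and form a second network. Nidogens join both networks, and perlecan, encoded by Hspg2, adds heparan sulfate chains. In healthy liver the sinusoids lack a continuous basement membrane, and collagen IV and laminin build up along them during fibrosis, a change known as capillarization. Stellate cells, endothelial cells and bile duct cells are known producers.

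Col4a1 and Col4a2 lie head to head on chromosome 8, a layout in which both genes are read outward from a common promoter. Their promoter windows, of 250 bases before and 50 after the start from RefSeq on GRCm38.p6, are shown because the 2 mRNAs had like fold changes, together with those of Nid1 and Lamb1, the genes that were furthest apart. Capitals mark the CCAAT box (CCAAT) and the GC box (GGGCGG), read on both strands, so that ATTGG and CCGCCC are the same motifs on the other strand. The windows are chr8:11312777-11313076 (minus strand) for Col4a1, chr8:11312555-11312854 (plus strand) for Col4a2, chr13:13437352-13437651 (plus) for Nid1 and chr12:31265043-31265342 (plus) for Lamb1.
Col4a1: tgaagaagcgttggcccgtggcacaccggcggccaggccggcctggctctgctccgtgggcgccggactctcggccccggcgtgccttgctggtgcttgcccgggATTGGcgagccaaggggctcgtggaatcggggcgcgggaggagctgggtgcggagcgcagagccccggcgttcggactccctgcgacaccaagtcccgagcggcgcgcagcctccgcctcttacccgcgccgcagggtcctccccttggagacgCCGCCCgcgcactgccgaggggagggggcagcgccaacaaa
Col4a2: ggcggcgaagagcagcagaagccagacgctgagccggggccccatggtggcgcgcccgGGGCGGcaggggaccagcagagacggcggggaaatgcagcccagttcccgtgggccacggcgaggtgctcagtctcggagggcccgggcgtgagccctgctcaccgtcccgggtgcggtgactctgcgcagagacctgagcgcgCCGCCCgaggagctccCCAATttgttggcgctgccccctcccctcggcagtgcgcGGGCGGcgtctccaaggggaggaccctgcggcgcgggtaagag
Nid1: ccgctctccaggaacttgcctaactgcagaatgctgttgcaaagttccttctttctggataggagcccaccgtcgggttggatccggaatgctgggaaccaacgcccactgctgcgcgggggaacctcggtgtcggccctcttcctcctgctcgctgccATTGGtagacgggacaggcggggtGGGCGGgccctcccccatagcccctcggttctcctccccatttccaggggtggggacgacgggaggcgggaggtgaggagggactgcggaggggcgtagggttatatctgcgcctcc
Lamb1: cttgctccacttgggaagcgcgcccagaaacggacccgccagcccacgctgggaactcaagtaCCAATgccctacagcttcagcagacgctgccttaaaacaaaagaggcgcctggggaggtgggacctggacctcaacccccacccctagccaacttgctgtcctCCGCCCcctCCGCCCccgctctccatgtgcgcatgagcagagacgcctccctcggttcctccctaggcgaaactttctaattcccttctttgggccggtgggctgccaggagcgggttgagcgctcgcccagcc

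The Col4a1 and Col4a2 windows share 78 bases (chr8:11312777-11312854), and the 2 transcripts overlap by 22 bases at their starts. Both windows were rich in G and C (74.0% and 73.7%, against a median of 52.7% over 32851 promoters), with 64.7% for Nid1 and 63.7% for Lamb1. These promoters, called all promoters below, leave out chromosome 18. Of the 10 genes, 7 had a window in the table, with 2 windows for Col18a1. Among these 8 windows, 6 held a CCAAT box and 7 a GC box, motifs present in 37.4% and 35.7% of all promoters. The GC box of the Col4a1 window lies in the shared bases and is also counted for Col4a2. All windows but that of Col4a5 were above the median in G and C, and the shares were not matched for this. The CAGAC letters bound by SMAD proteins were in 3 windows and in 49.6% of all. None of the 8 held the forkhead letters GTAAACA or TGTTTNC, the TATA box TATAAA or the AP-1 letters TGANTCA, which were found in 3.65%, 20.5%, 13.6% and 7.81% of all promoters. This says only that these letters are not in these windows.

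All 10 mRNAs were above the filter of a mean of 1 FPKM, and in Foxf1fl/fl cells they ranged from 2.37 to 37.1 FPKM. Col4a1 was the most abundant in both libraries, at 37.1 FPKM in the control and 48.3 in the knockout library, and Col4a2 was next at 27.9 and 34.7. Hspg2 followed at 23.7 and 26.8. Below them in Foxf1fl/fl cells came Lamc1, Lama4 and Nid1 at 13.5, 13.1 and 12.8, which did not differ from each other beyond counting error (intervals 12.7 to 14.4, 12.1 to 14.0 and 11.9 to 13.7). Col18a1 at 9.03 and Lamb1 at 7.32 were lower, and Nid2 at 3.05 (2.54 to 3.56) and Col4a5 at 2.37 (1.99 to 2.76) were lowest, with overlapping intervals. In αSMACreER;Foxf1-/- cells Nid1, at 20.1, stood apart from Lamc1 at 15.0 and Lama4 at 10.6, and Col4a5 (3.23) and Nid2 (2.86) changed places within counting error. Among the 12692 genes tested, Col4a1 was at percentile 80.2 of level in the control and 85.0 in the knockout library, and Col4a5 was at 17.8 and 23.0. Summed over the 10 genes, 150 FPKM in the control and 173 in the knockout library made up 0.0199% and 0.0260% of all FPKM.

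**Figure D1:**
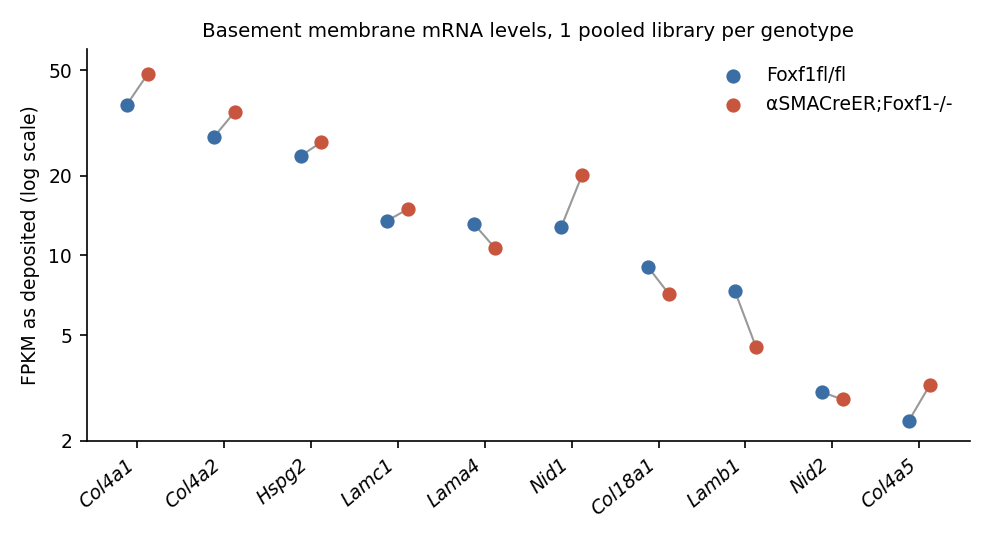
FPKM as deposited (log scale) of the 10 genes in the Foxf1fl/fl (blue) and αSMACreER;Foxf1-/- (red) libraries, 1 pooled library each, ordered by level in Foxf1fl/fl. Col4a1 is highest in both (37.1 and 48.3), and Nid1 moves from 12.8 to 20.1 while Lamb1 moves from 7.32 to 4.53.

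The basement membrane genes did not move as a block. Log2 fold changes ran from −0.71 for Lamb1 to 0.62 for Nid1, with a median of 0.13 against 0.0050 over all genes tested. Of the 10 genes, 6 were higher and 4 lower in αSMACreER;Foxf1-/- cells, where 50.4% of all genes tested were higher and 49.6% lower. A 1.5-fold threshold was taken from the methods of the study, without the limit on false discovery rate that they also set. It was passed upward by 1 gene (Nid1) and downward by 1 gene (Lamb1), against 12.8% and 13.2% of all genes tested, so these counts are near the background. The counting interval lay above 0 for 5 genes and below 0 for 3, against 30.3% and 29% of all genes tested. These shares were not matched for transcript length, and a longer transcript gives more estimated reads, and so a narrower interval, at the same FPKM.

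**Figure D2:**
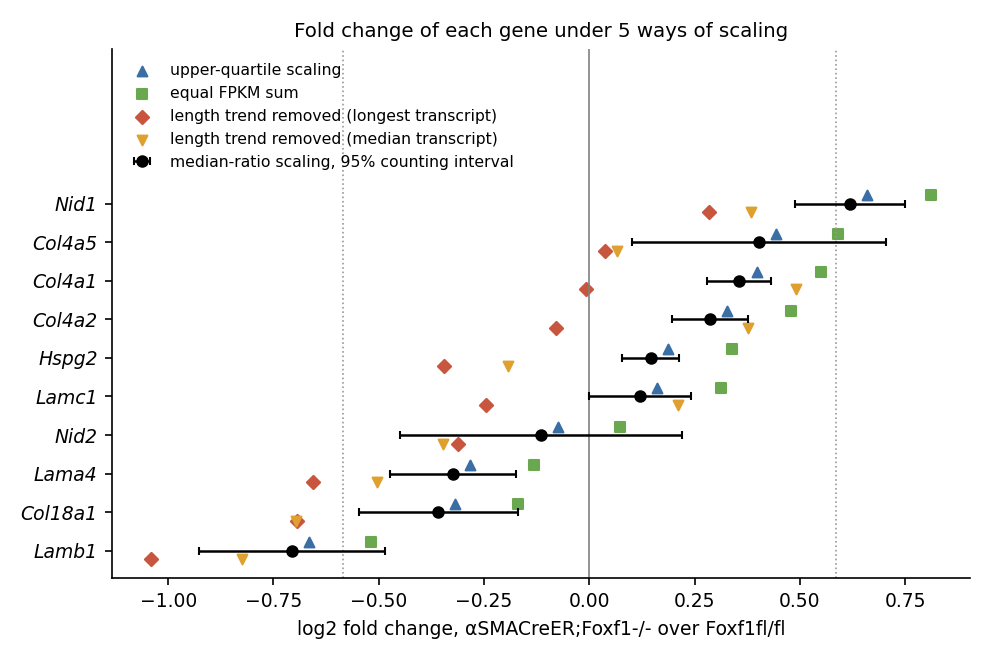
Log2 fold change of each gene, αSMACreER;Foxf1-/- over Foxf1fl/fl. Black points with bars are the values after median-ratio scaling with their 95% counting intervals, coloured marks are the same genes under 4 other treatments, and dotted lines mark 1.5-fold. Nid1 (0.62) and Lamb1 (−0.71) are the only black points beyond the dotted lines, and removal of the length trend on the longest transcript (red diamonds) shifts every gene to the left.

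Transcript length moved with these values. Fold changes went up with the length of the longest annotated transcript, from a median of −0.36 in the shortest of 20 length groups to 0.49 in the longest, and the 10 genes are long, with a median of 6270.5 bases against 3066.5 over all genes tested. The 2564 genes as long as these (4876 to 14187 bases) had a median of 0.35. Of them, 81.2% were higher and 18.8% lower, and 27.1% passed 1.5-fold upward and 3.16% downward. After the median of each length group was subtracted, 2 of the 10 genes stayed above 0 (Col4a5 at 0.038 and Nid1 at 0.28), 8 were below it, and the median was −0.28. With that trend removed, 10% and 11.1% of all genes tested passed 1.5-fold upward and downward, as did 0 and 3 of the 10 (Lamb1, Col18a1 and Lama4). These values depend on the length measure. With the trend on the median transcript length removed instead, Col4a1 (0.49), Col4a2 (0.38), Nid1 (0.38), Lamc1 (0.21) and Col4a5 (0.065) were above 0. The other genes were below it, and the median was −0.064. The part of length in the fold changes was not tested further.

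**Figure D3:**
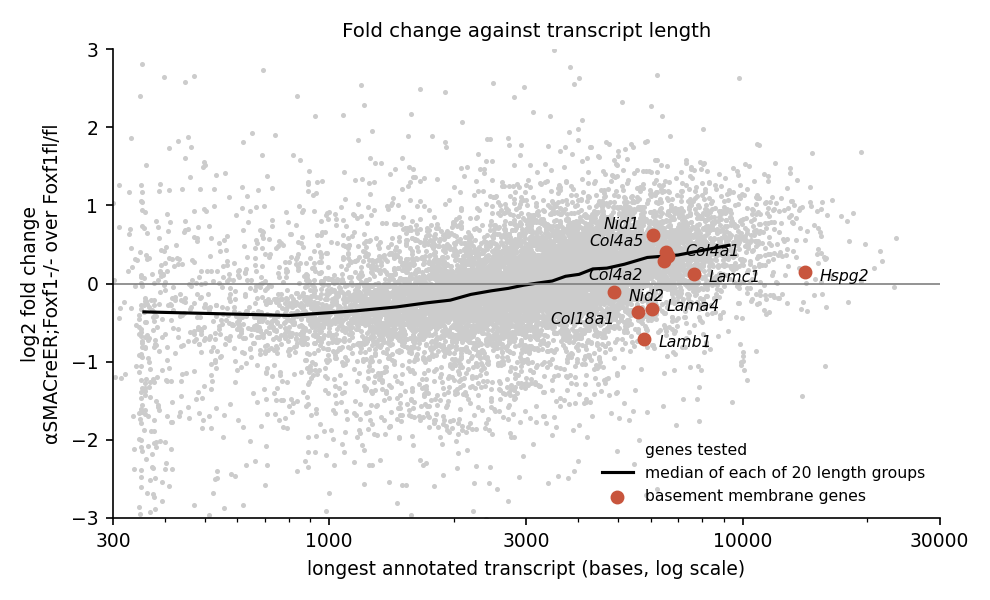
Log2 fold change, αSMACreER;Foxf1-/- over Foxf1fl/fl, against the longest annotated transcript in bases (log scale) for all genes tested (grey, 291 genes lie outside the axes), with the median of each of 20 length groups as a black line. The collagen IV genes lie on the line, Nid1 lies above it, and Lamb1, Lama4 and Col18a1 lie furthest below it.

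Of the network-forming collagens, all 3 collagen IV chains were higher in αSMACreER;Foxf1-/- cells by less than 1.5-fold, although Col4a1 and Col4a2 turned slightly negative with the trend on longest transcript length removed. Col4a1 (ENSMUSG00000031502, chromosome 8 from 11198423 to 11312826 of GRCm38, minus strand), the α1 chain, had 37.1 FPKM in the control and 48.3 in the knockout library. This is a log2 difference of 0.36, with counting limits of 0.28 and 0.43, on about 2282 and 3456 reads. Col4a2 (ENSMUSG00000031503, chromosome 8 from 11312805 to 11449287, plus strand), the α2 chain, had 27.9 and 34.7 FPKM, a log2 difference of 0.29 (limits 0.20 and 0.38). The balance of the pair was not separated beyond counting error, since the FPKM ratio of Col4a1 to Col4a2 stood at 1.33 in the control library and 1.39 in the knockout library, a log2 difference of 0.069 with an interval from −0.049 to 0.19. Among genes with a longest transcript of like length the 2 chains lay near the middle. They were above 49.6% (Col4a1) and 40.8% (Col4a2) of the 635 genes of 6388 to 7775 bases, and their values became −0.0089 and −0.078 with that length trend removed. With the trend on the median transcript length removed instead, their values were 0.49 and 0.38, so this placing depends on the length measure.

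Col4a5 (ENSMUSG00000031274, chromosome X from 141475385 to 141689234, plus strand) encodes the α5 chain, which pairs with α3 and α4 in kidney glomeruli and with α6 elsewhere. It had 2.37 FPKM in the control and 3.23 in the knockout library, on about 144 and 228 reads, for a log2 difference of 0.40 (0.10 to 0.70), and 0.038 with the length trend removed. The partner chains were below 1 FPKM in both libraries. Col4a6 had 0.614 and 0.808, Col4a3 had 0.0319 and 0.0639, and Col4a4 had 0.0595 and 0.0594.

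Collagen XVIII went the other way. Col18a1 (ENSMUSG00000001435, chromosome 10 from 77052178 to 77166548, minus strand) encodes a heparan sulfate-bearing collagen whose C-terminal fragment is endostatin, and hepatocytes are a known source of it in liver. It had 9.03 FPKM in the control and 7.15 in the knockout library, a log2 difference of −0.36 (−0.55 to −0.17). In its length group of 634 genes, 6.31% had a lower fold change, and the value was −0.69 with the length trend removed. Hepatocyte markers moved with it. All 9 that had a value were at least 1.5-fold lower, as were 13.2% of all genes tested, with a median log2 fold change of −1.56 and a summed level of 3296 FPKM in the control and 1227 in the knockout library. Alb had 2292 FPKM in the control and 912 in the knockout library, Ttr 322 and 86.8, and Apoa1 261 and 84.2. Cyp2e1, Serpina1c, Pck1, Fgb, Hnf4a and Tat differed by log2 values from −1.84 to −1.08. Their part in the Col18a1 value was not tested. Col15a1, the related collagen XV, had 8.38 and 9.38 FPKM, a log2 difference of 0.13 (−0.053 to 0.32).

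Of the 3 laminin chains among the 10 genes, Lamb1 and Lama4 were lower in αSMACreER;Foxf1-/- cells and Lamc1 was nearly level. Lamb1 (ENSMUSG00000002900, chromosome 12 from 31265234 to 31329644, plus strand), the β1 chain shared by many laminins, had 7.32 FPKM in the control and 4.53 in the knockout library, on about 392 and 282 reads. This was 0.613 of the control level after scaling, a log2 difference of −0.71 (−0.93 to −0.49). Of the 634 genes of 5515 to 6387 bases, 17 were at least 1.5-fold lower and 1.58% had a lower value than Lamb1, which moved to −1.04 with the length trend removed. The call ended with scaling to an equal FPKM sum, at −0.52. Lama4 (ENSMUSG00000019846, chromosome 10 from 38965515 to 39110188, plus strand), the α4 chain of vessel and mesenchymal laminins, had 13.1 and 10.6 FPKM, a log2 difference of −0.32 (−0.47 to −0.17), and −0.66 with the length trend removed. Lamc1 (ENSMUSG00000026478, chromosome 1 from 153218922 to 153332786, minus strand), the γ1 chain found in most laminins, had 13.5 and 15.0 FPKM. Its log2 difference of 0.12 had limits of −0.00080 and 0.24, so it was not separated from 0 by counting error, and it was −0.24 with the length trend removed.

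The proportions of the 3 chains, which together form laminin-411, therefore differed between the libraries. The FPKM ratio of Lamb1 to Lamc1 stood at 0.541 in the control and at 0.302 in the knockout library, a log2 difference of −0.84 (−1.09 to −0.59). For Lama4 to Lamc1 it was 0.967 and 0.709, a log2 difference of −0.45 (−0.64 to −0.25). Such ratios do not depend on the scaling between libraries, but their intervals rest on reads placed on the longest transcript. With reads placed on the median transcript length, Lama4 had only about 301 and 284 reads and Lamc1 about 94 and 121. The ratio intervals would then be wider, and whether they would still exclude 0 was not tested. The summed FPKM of the 3 chains was 33.9 and 30.2, whereas that of the 3 collagen IV chains was 67.4 and 86.3.

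Some other laminin chains were read for comparison. Lamc3, a γ chain of restricted distribution, had 3.46 FPKM in the control and 1.05 in the knockout library on about 188 and 67 reads, a log2 difference of −1.65 (−2.05 to −1.25). Lama5, the α5 chain of mature epithelial and vessel basement membranes, had 8.14 and 6.28, a log2 difference of −0.40 (−0.54 to −0.26). Lamb2, the β2 chain, had 8.83 and 8.78, with an interval that spanned 0. Lama1, Lama2, Lama3 and Lamb3 were below the filter, with a higher FPKM in αSMACreER;Foxf1-/- cells in each case. Lama1, Lama2 and Lama3, on at most 21 reads, had intervals too wide to give a direction, and Lamb3, at 0.354 and 0.772 FPKM, had an interval that excluded 0.

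**Figure D4:**
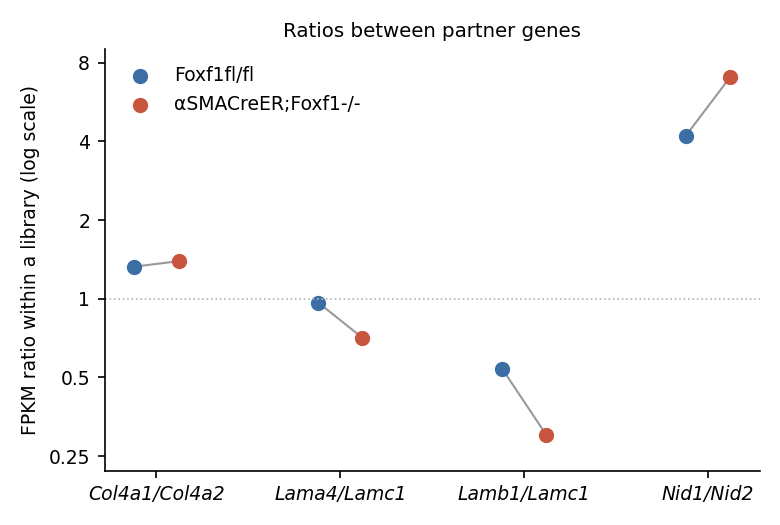
FPKM ratio within each library (log scale) for 4 pairs of genes whose products assemble or act together, in Foxf1fl/fl (blue) and αSMACreER;Foxf1-/- (red) cells. Col4a1/Col4a2 is nearly level at 1.33 and 1.39, Lama4/Lamc1 and Lamb1/Lamc1 are lower in αSMACreER;Foxf1-/- cells, and Nid1/Nid2 goes from 4.20 to 7.02.

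The linker proteins differed between the 2 nidogen genes. Nid1 (ENSMUSG00000005397, chromosome 13 from 13437551 to 13512269, plus strand), which binds the laminin γ1 chain and collagen IV, had 12.8 FPKM in the control and 20.1 in the knockout library. It was 1.54-fold higher, a log2 difference of 0.62 (0.49 to 0.75) on about 724 and 1318 reads, and was above 77.1% of the 634 genes of its length. The 1.5-fold call ended with the length trend removed, at 0.28. Nid2 (ENSMUSG00000021806, chromosome 14 from 19751265 to 19811787, plus strand) had 3.05 and 2.86 FPKM, a log2 difference of −0.11 (−0.45 to 0.22) that became 0.073 with equal FPKM sums. The Nid1 to Nid2 ratio was 4.20 and 7.02, a log2 difference of 0.74 (0.38 to 1.10). Nid2 is the least certain of the 10 genes, since 437 of its 5174 exon bases overlap those of Rtraf on the opposite strand (43.6 and 33.6 FPKM), and 7.56% of the 75-base stretches of its longest transcript also occur in Rtraf transcripts. For Nid1 the share found in other genes was 2.53%, and for the other 8 genes it was 0.

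Hspg2 (ENSMUSG00000028763, chromosome 4 from 137468769 to 137570630, plus strand), which encodes perlecan, has the longest transcript of the set at 14187 bases. It had 23.7 FPKM in the control and 26.8 in the knockout library, a log2 difference of 0.15 (0.079 to 0.21) on about 3188 and 4170 reads. In the group of longest transcripts the median was 0.49 and 22.7% of genes had a lower value, and with the length trend removed Hspg2 was at −0.34. Agrn, which encodes agrin, the other large heparan sulfate proteoglycan of basement membranes, had 20.9 and 19.4, a log2 difference of −0.13 (−0.23 to −0.038).

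Other basement membrane components, the receptors and the enzymes that build collagen IV were read from lists written from general knowledge. Of 17 further components, 11 passed the filter, with 2 at least 1.5-fold higher, 1 at least 1.5-fold lower (12.8% and 13.2% of all genes tested were) and a median of 0.28. Hmcn1 (hemicentin-1) had 1.87 and 3.40 FPKM, a log2 difference of 0.80 that became 0.31 with the length trend removed, which ends its 1.5-fold call. Smoc2 had 1.12 and 1.96, a difference of 0.74 on about 40 and 82 reads. Smoc1, its relative among the SPARC-like calcium-binding proteins, had 1.87 and 0.782, a difference of −1.18 (−1.83 to −0.54). It was above 1 FPKM in the control library alone and met the filter through its mean, so its direction is not independent of having been kept.

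Among 15 receptors for laminin and collagen IV, 14 passed, with a median of 0.15, and 3 were at least 1.5-fold higher (12.8% of all genes tested were) and 0 lower. Itga1, the α1 integrin subunit that binds collagen IV, had 2.68 and 5.91 FPKM, a log2 difference of 1.09 (0.89 to 1.29), and 0.60 with the length trend removed. Itgb4, the epithelial laminin receptor subunit of hemidesmosomes, had 0.659 and 1.98, a difference of 1.43 on about 38 and 132 reads, and 1.09 with the length trend removed. Ddr2, a collagen receptor of mesenchymal cells that favours fibrillar collagens, had 0.721 and 1.53, a difference of 0.97 (0.53 to 1.41) that became 0.47 with the length trend removed, which ends its 1.5-fold call. It passed 1 FPKM only in αSMACreER;Foxf1-/- cells, as did Itgb4. Both met the filter through their mean, so the direction of their change is not independent of having been kept.

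Of 16 genes for folding, secretion and crosslinking of collagen IV, 14 passed, with a median of 0.11. Of these, 1 was at least 1.5-fold higher and 1 lower, against 12.8% and 13.2% of all genes tested. P3h1, a prolyl 3-hydroxylase, had 11.3 and 18.3 FPKM, a log2 difference of 0.67 (0.47 to 0.86). P3h2, the other prolyl 3-hydroxylase of the list, was below the filter at 0.180 and 0.483 FPKM, with an interval that spanned 0. P4hb, protein disulfide isomerase and the β subunit of prolyl 4-hydroxylase, had 692 and 463, a difference of −0.60 (−0.64 to −0.57), which fell just short of 1.5-fold with the length trend removed.

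The cell types that could supply these mRNAs were read alongside. Of 10 stellate cell and myofibroblast markers that passed, 8 were higher in αSMACreER;Foxf1-/- cells (50.4% of all genes tested were), with a median of 0.45 that became 0.20 with the length trend removed. Des (desmin) had 1.70 and 3.29 FPKM, Acta2 (α-smooth muscle actin) had 7.77 and 5.65, and Pdgfrb had 1.03 and 1.43. The 2 lower genes were Acta2, at −0.48 (−0.84 to −0.12), and Tagln, at −0.37 with an interval that spanned 0. The interval lay above 0 for 5 markers and below 0 for 1 (30.3% and 29% of all genes tested). Below the filter, Reln was at −0.94 (−1.49 to −0.39), while Lrat, Myh11, Ngfr and Hhip had intervals that spanned 0. Of 13 endothelial markers, 11 were higher, with a median of 0.22 that became 0.049 with the length trend removed. Pecam1 had 93.3 and 96.6 FPKM, Cdh5 had 98.4 and 113, and Stab2 had 64.0 and 85.9. The 2 endothelial markers past 1.5-fold were Vwf, with 4.14 and 7.15 FPKM, and Ptprb, with 15.5 and 25.6. With the length trend removed, their log2 differences of 0.75 and 0.69 became 0.26 and 0.20, which ends both calls. Of 10 macrophage markers, the interval lay below 0 for 8 (29% of all genes tested), with a median of −0.33 that became −0.12 with the length trend removed. Clec4f had 1117 and 753 FPKM, Cd68 had 646 and 679, and Adgre1 had 162 and 165. The log2 difference of Clec4f was −0.60, and −0.50 with the length trend removed, which ends its 1.5-fold call. Of 5 cholangiocyte markers that passed, 3 were higher and 2 lower, with Krt19 at 39.7 and 29.5, Krt7 at 4.91 and 6.91, and Epcam at 8.38 and 5.65. Epcam, at −0.59, became −0.37 with the length trend removed, which ends its 1.5-fold call. The part of these cell types in the basement membrane values was not tested.

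**Figure D5:**
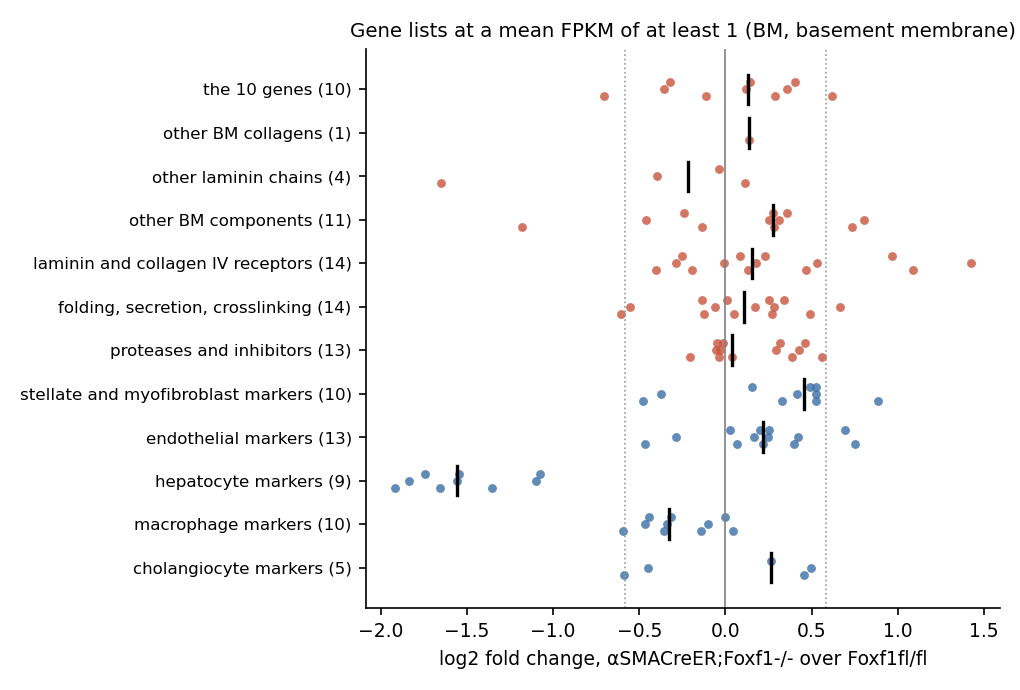
Log2 fold change, αSMACreER;Foxf1-/- over Foxf1fl/fl, of every listed gene that passed the filter, with the number of genes in parentheses. Points are genes, in red for basement membrane lists and blue for cell type markers, black bars are list medians and dotted lines mark 1.5-fold. The 10 genes spread to both sides of 0 (median 0.13), while hepatocyte markers all lie to the left (median −1.56).

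With 2 libraries a pattern is only a pair of levels. The genes outside the lists with levels nearest to the median of the 10 (12.9 and 12.6 FPKM) were Smg5, Prkaca and Pwp1, at distances of 0.0060, 0.0094 and 0.026 on the log2 scale over the 2 libraries.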

How the data were processed

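RNA of adherent liver cells was pooled within each genotype, and 1 TruSeq library per genotype was sequenced as 75-base single-end reads. The authors aligned the reads with Tophat to mm10 and deposited FPKM computed by Cufflinks for each Ensembl gene, a unit scaled to transcript length and mapped reads. Versions are not given in the sources used here. Symbols, coordinates and transcript lengths came from GENCODE M21 (GRCm38), which named 36490 of the 38320 entries. All 10 genes overlapped their annotated position.

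The αSMACreER;Foxf1-/- values were divided by 1.02, the median ratio over genes with at least 1 FPKM in both libraries, and 0.1 was added before log2. Genes tested were the 12692 whose status was OK and whose mean reached 1 FPKM. For a symbol with several entries, the highest was kept. FPKM are not counts, so no count test was run. Reads were estimated from the 1-read step of low values in genes with 1 transcript (75.1% and 79.4% of low values within 0.2 of a whole read), taking the longest transcript and fragments of 200 bases. Foxf1 and 2 listed genes were not analysed here, and 1 further listed gene is not reported. The 10 genes and all lists were chosen with earlier results of these data known. Named were the 10 genes, listed genes past 1.5-fold, the first 3 markers of each cell type and the 3 nearest genes. A few others were named after their values were seen. Alternatives changed the pseudocount, scaling, filter, fold and length trend, and the closing section gives their effect. Simulated data without a length trend were used to test recovery of set fold changes and of the scaling divisor only. The read estimate, the counting intervals and the removal of the length trend were not tested in this way. Calculations used Python 3.11.15, numpy 2.4.6, pandas 2.3.3 and matplotlib 3.10.9.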

Additional observations from a re-analysis of the deposited data

How the results depend on the processing

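No paired analysis was possible because there was 1 library for each genotype, and for the same reason no replicate could be left out. Under both other pseudocounts, values as deposited, upper-quartile scaling, protein-coding genes only and summed entries of a symbol, the 10 fold changes moved by less than their counting intervals and the counts past 1.5-fold by less than 1.5 times. The length and scaling alternatives moved more, and the cause was not tested beyond what each adjusts. Equal FPKM sums raised the median of all genes to 0.20. They gave 0.55 for Col4a1, 0.48 for Col4a2, −0.17 for Col18a1, −0.13 for Lama4, 0.31 for Lamc1, 0.81 for Nid1, 0.34 for Hspg2 and a reversed 0.073 for Nid2, with 2 genes past 1.5-fold higher (Nid1 and Col4a5), 0 lower and a median of 0.33. With the trend on the longest transcript removed, Col4a1 (−0.0089), Col4a2 (−0.078), Lamc1 (−0.24), Hspg2 (−0.34) and the median (−0.28) reversed, Col4a5 was 0.038, Nid1 0.28, Col18a1 −0.69, Lama4 −0.66 and Lamb1 −1.04, and 0 genes were past 1.5-fold higher and 3 lower. With the trend on the median transcript length removed, Hspg2 (−0.19) and the median (−0.064) reversed, Col4a1 was 0.49, Col4a2 0.38, Col4a5 0.065, Col18a1 −0.70, Lama4 −0.50 and Nid1 0.38, with 0 higher and 2 lower. At 2-fold, 0 of the 10 genes passed in either direction. With reads placed on the median transcript length, a choice made after seeing the data, the same 8 intervals excluded 0.

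For the other lists, equal sums gave medians of 0.33 (other collagens), 0.47 (other components), 0.30 (folding and crosslinking) and 0.23 (proteases). The longest-transcript trend removed gave −0.11 for other collagens, reversed, −0.63 for other laminin chains and 0.14 for proteases. The median-transcript trend removed gave 0.13 for other components and 0.15 for proteases. Without a filter the other laminin chains reversed to 0.16, since 4 chains near 0 entered, and proteases were at 0.13. Among all genes, equal sums gave 2690 at least 1.5-fold higher, no filter gave 3832 higher and 3225 lower, a mean FPKM of at least 5 gave 685 and 943, and 2-fold gave 552 and 788, against 1624 and 1678. With reads placed on the longest transcript, depth limits Nid2 and Col4a5 most, at about 137 and 144 reads in Foxf1fl/fl. This depends on the length measure. With reads placed on the median transcript length, Lamc1 had the fewest in Foxf1fl/fl, at about 94. Col4a1 then had about 159 in place of 2282, and Col4a2 about 194 in place of 1676.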

Other observations

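Proteases that cut basement membranes, and their inhibitors, formed a further list of 16 genes, of which 15 had a value and 13 passed the filter. Their median log2 fold change was 0.037, 0 were at least 1.5-fold higher or lower (12.8% and 13.2% of all genes tested were), and the counting interval lay above 0 for 7 and below 0 for 2 (30.3% and 29% of all genes tested). Mmp2, the gelatinase that cuts collagen IV, had 2.46 FPKM in the control library and 3.75 in the knockout library, a log2 difference of 0.56 (0.13 to 0.99) on about 68 and 120 reads. The study had already reported Mmp2 as increased, from this RNA-seq and by qRT-PCR, so its direction here is not a separate observation. With the scaling used here Mmp2 fell short of 1.5-fold. Adamts1, a secreted metalloprotease, had 80.8 and 113 FPKM, a difference of 0.46 (0.40 to 0.52). Mmp9, the other gelatinase, had 6.76 and 5.95 FPKM, a difference of −0.21 (−0.49 to 0.080).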
